A study of Homo sapiens with 18 samples.

Results

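The genes described here encode the enzymes that burn fatty acids. They are 37 of the 23106 genes in the count tables. They were chosen by name and function and by no rule on measured values, although earlier results of these data were known. The list holds the carnitine shuttle, the acyl-CoA dehydrogenases, the enzymes of the mitochondrial spiral, the electron transfer proteins, and the peroxisomal oxidases and their partners. Also on it are catalase, the enzymes of ketone body exchange, and the regulators PPARA and PPARGC1A. All 37 were found in the tables by symbol.

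Fatty acids enter mitochondria as carnitine esters. Each turn of the spiral then dehydrogenates, hydrates, dehydrogenates again and cleaves the chain, and the electrons leave through the electron transfer flavoprotein to ubiquinone. Peroxisomes shorten very long and branched chains with oxidases that pass electrons straight to oxygen and make hydrogen peroxide, which catalase removes. The pathway is highly active in liver and in the proximal tubule of the kidney, and both mitochondrial electron transfer and the peroxisomal oxidases use oxygen.

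PolyA+ RNA was sequenced from 3 established human cell lines, with 3 replicates in normoxia and 3 in hypoxia for each line and 18 libraries in all. HKC8 is a line from kidney proximal tubule, and its hypoxic cells had 0.5% oxygen for 16 h, although their titles give 0.1 where the normoxic titles give 21. RCC4+VHL is a kidney cancer line with a mutated VHL gene, the ubiquitin ligase subunit that marks HIF for destruction, into which wild-type VHL had been stably introduced in all 6 libraries used here. Its hypoxic cells are labelled 1.0% oxygen for 24 h, while the study's text gives RCC4 cells the same exposure as the other lines. HepG2 is a liver cancer line, and its hypoxic cells had 0.5% oxygen for 16 h. Oxygen level, duration and cell line therefore cannot be told apart where RCC4+VHL cells are set against another line. If the level in the HKC8 titles held, oxygen level and line could not be told apart between HKC8 and HepG2 cells either. No other agent is named in the labels. Nothing in the labels says that replicates were separate cultures, so p-values measure the spread between these libraries, which may be technical.

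The total count was 75441764 to 97984260 per HKC8 library, 42045335 to 51794355 per RCC4+VHL library and 40915980 to 48355303 per HepG2 library, so depth goes with the line. A count of 3 in a library equals 0.0306 to 0.0733 CPM (counts scaled to library size by the TMM method of edgeR), a floor that covers counting error only. The hypoxia labels were checked with 10 well-known hypoxia-induced genes. All 10 rose in HKC8 and in HepG2 cells, and the 9 tested rose in RCC4+VHL cells. Of 10 hepatocyte markers, 0 of 10 were above 1 CPM in every HKC8 library, 1 (SERPINA1) in RCC4+VHL and all 10 in HepG2 cells. Of 12 renal tubule markers, 4 were above 1 CPM in every HKC8 library, while the proximal tubule receptors LRP2 and CUBN stayed under 1 CPM there. Of the same markers, 7 were above 1 CPM in RCC4+VHL and 5 in HepG2 cells. VHL itself stood at 62 to 67.3 CPM in RCC4+VHL cells.

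In normoxia the lines differed in the transcript levels of many oxidation genes, as they did in many of all genes tested. Between genes, levels were compared per length, as RPKM (CPM per kilobase of the longest annotated transcript). In normoxia the 5 highest levels in HepG2 cells were those of ECHS1, the enoyl-CoA hydratase (126 ± 8.34 RPKM, SD, n = 3), HADHA, the alpha subunit of the trifunctional protein (113 ± 5.05 RPKM), ETFB (91.7 ± 3.61 RPKM) and ETFA (91 ± 7.56 RPKM), the subunits of the electron transfer flavoprotein, and HADHB, the beta subunit of the trifunctional protein (86.1 ± 3.23 RPKM). ETFA and ETFB overlapped in their spread. ECHS1 also led in RCC4+VHL cells with 198 ± 4.46 RPKM, ahead of ECI1, an isomerase for unsaturated chains (66.6 ± 2.92 RPKM). In HKC8 cells HADHA led with 73.9 ± 4.08 RPKM. OXCT1, which attaches coenzyme A to acetoacetate so that ketone bodies can be used, was the second of the HKC8 levels at 57.4 ± 0.485 RPKM, with ETFA at 56.7 ± 0.765 RPKM and ECHS1 at 56.4 ± 3.46 RPKM next to it and not apart from it by more than their spread. Where length was taken as the union of all exons, 4 of the 5 highest stayed among the 5 highest in each line.

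**Figure D1:**
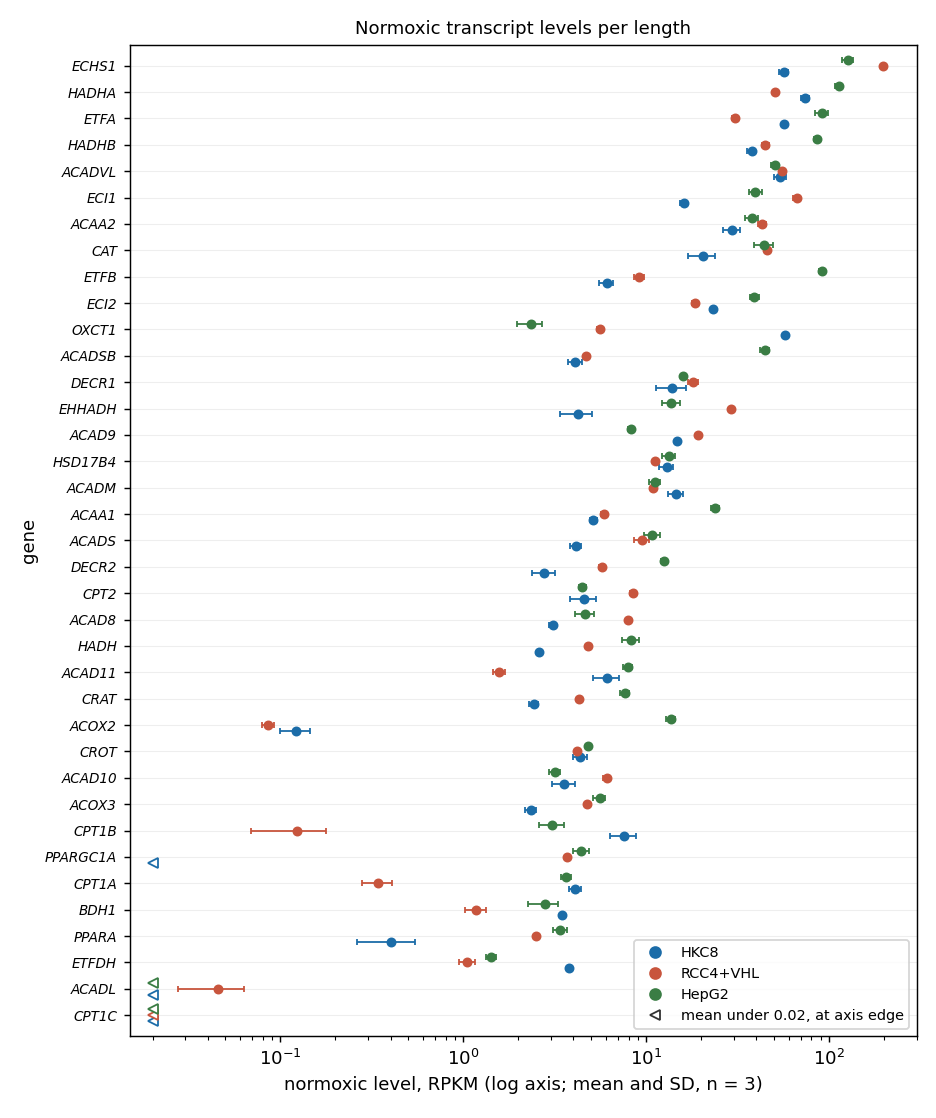
Normoxic level of each of the 37 genes in RPKM on a log axis, as mean and SD of 3 libraries, with 1 colour per cell line. ETFB, ACADSB and ACOX2 lie far to the right in HepG2 cells, OXCT1 in HKC8 cells, and CPT1A and CPT1B far to the left in RCC4+VHL cells. Open triangles mark means under 0.02 RPKM.

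Of the 35 genes tested between normoxic HepG2 and HKC8 cells, 22 were higher in HepG2 cells, where 42.6% of all genes tested were higher, and 5 were lower, where 40.5% of all genes were (edgeR's quasi-likelihood test, Benjamini-Hochberg adjusted p under 0.05 over all genes, as throughout). All 5 mitochondrial hydratase, dehydrogenase and thiolase genes were among the 22. ACOX2, the oxidase for branched chains and bile acid intermediates, showed 30.4 to 33.7 CPM in normoxic HepG2 libraries and 0.24 to 0.345 CPM in normoxic HKC8 libraries, 112-fold higher (log2 difference 6.81, standard error 0.154, adjusted p = 5.64e-14). ETFB was 15.3-fold and ACADSB, the dehydrogenase for short branched chains from isoleucine, 11-fold higher in HepG2 cells. The largest difference in this direction was that of PPARGC1A (log2 difference 9.9). It showed 24.6 to 29.5 CPM in normoxic HepG2 libraries and 0.012 to 0.055 CPM, from 1 to 5 counts, in normoxic HKC8 libraries. The largest difference the other way was that of OXCT1, with 188 to 191 CPM in normoxic HKC8 libraries and 6.94 to 9.09 CPM in normoxic HepG2 libraries (log2 difference -4.60, standard error 0.0999, adjusted p = 3.81e-14). ACADM, the medium-chain dehydrogenase, ACAD9, a dehydrogenase that also assembles complex I, ETFDH, which hands the electrons to ubiquinone, and CPT1B, the muscle form of the outer carnitine transferase, were the others lower in HepG2 cells. With this many differences between lines, fewer expressing cells and less RNA per cell cannot be told apart in bulk RNA.

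RCC4+VHL cells differed from HKC8 cells in 32 of 35 genes tested, with 21 higher (39.4% of all genes were) and 11 lower (41.4%). EHHADH, the peroxisomal bifunctional enzyme, was 6.94-fold higher in RCC4+VHL cells, at 110 to 112 CPM against 13.5 to 19.7 CPM in normoxic HKC8 libraries. ECI1 was 4.19-fold and ECHS1 3.53-fold higher. CPT1A, the liver form of the carnitine transferase that sets the rate of entry, showed 1.45 to 2.13 CPM in normoxic RCC4+VHL libraries, against 19.8 to 22.8 CPM in HKC8 and 17.8 to 20.2 CPM in HepG2 libraries. CPT1B showed 0.187 to 0.474 CPM there and CPT1C, the brain form, 0 CPM, so all 3 forms of this enzyme were low in RCC4+VHL cells. Against RCC4+VHL cells, HepG2 cells were higher in 20 of 35 genes, where 45.3% of all genes were higher, and lower in 8, where 38.1% were. The median of all genes in this comparison was 0.11 above 0 on the log2 scale, and that of the 35 was 0.26.

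Some genes of the list were scarcely transcribed. ACADL, the long-chain dehydrogenase, had 0 counts in every HKC8 and HepG2 library and 5 to 12 counts in each RCC4+VHL library. CPT1C had 0 to 12 counts in any library. PPARGC1A had 0 to 5 counts in each HKC8 library and 656 to 1384 in each library of the other lines. CPT1C and ACADL were thus tested for hypoxia in no line, and PPARGC1A not in HKC8 cells. A count of 0 allows up to 3 counts, at most 0.0733 CPM.

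Hypoxia moved a part of the list in each line, in both directions, by modest folds. In HKC8 cells 34 of 37 genes passed the filter on low counts, and 3 of the 34 rose and 5 fell, where 11.2% of all genes tested rose and 9.12% fell. In RCC4+VHL cells 7 of 35 rose and 11 fell, where 25.9% and 24.2% of all genes did. In HepG2 cells 7 of 35 rose and 9 fell, where 19.9% and 19.2% of all genes did. The median log2 fold change over the genes tested was -0.08 in HKC8, -0.06 in RCC4+VHL and -0.06 in HepG2 cells, beside a median of all genes of 0.00 in each line. As shares of the members tested, 8.82%, 20% and 20% rose and 14.7%, 31.4% and 25.7% fell in the 3 lines. In these fits the share that fell was above that of all genes in each line. The share that rose was not above it in HKC8 and RCC4+VHL cells. These shares were not tested against each other. In HepG2 cells the excess of falls did not hold in every fit. Without hypoxia replicate 3 it was absent, as 4 members fell by edgeR, beside 2087 of 13813 genes. By DESeq2 a slight excess remained, as 7 members fell, beside 2593 of 13623 genes. Over the 3 lines, 29 of the 37 were called at least once. CROT fell in all 3 lines and was the only gene called in all 3. CPT1A, CPT1B and ACADSB were called in opposite directions in 2 lines. ACADM, ACAD8, HADHB, ACAA2, DECR2 and ACOX3 were tested in all 3 lines and called in none. These counts across lines were not made over all genes, so they do not set the list apart from other genes.

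**Figure D2:**
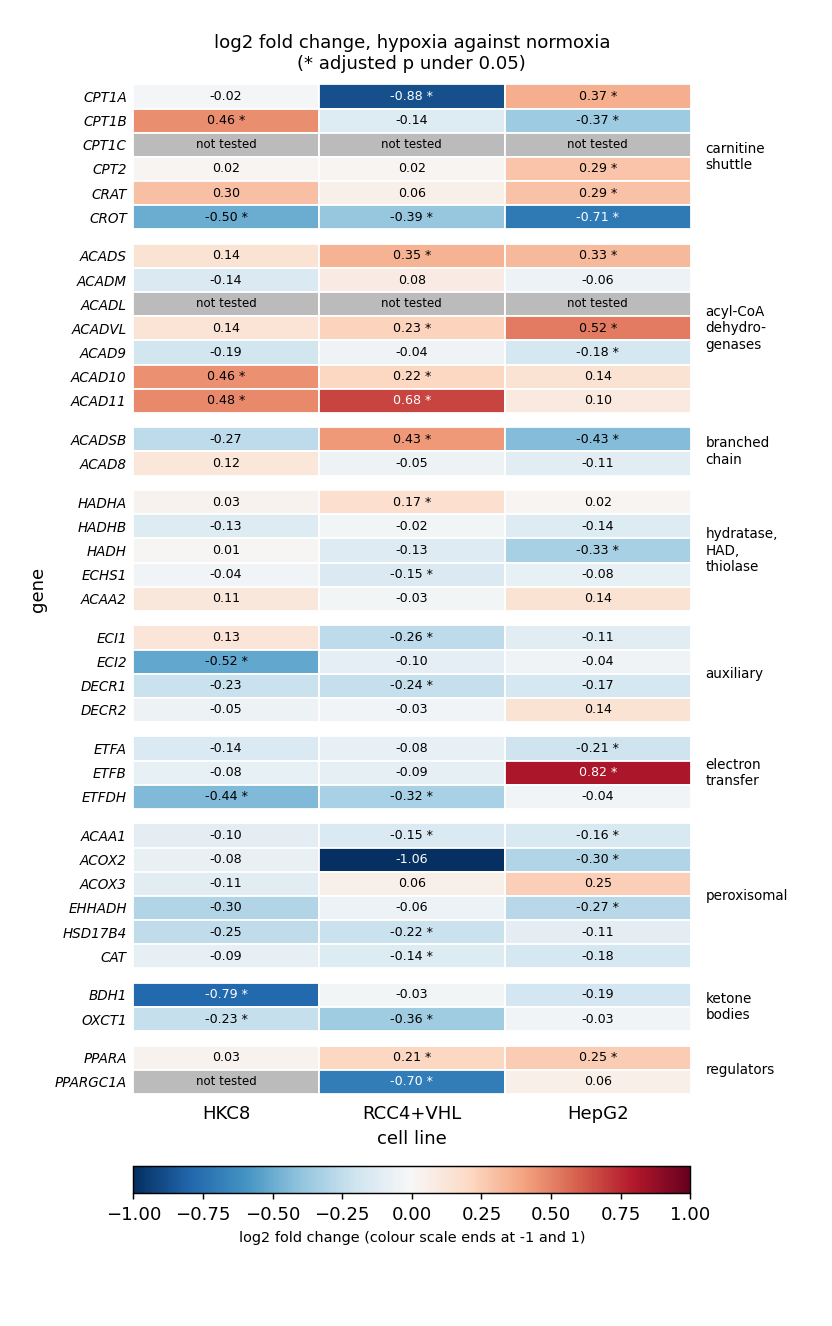
Log2 fold change of each of the 37 genes in hypoxia against normoxia, with genes in rows grouped by role and the 3 cell lines in columns. Red is higher in hypoxia, blue lower, and an asterisk marks an adjusted p under 0.05. The CROT row is blue with an asterisk in every line, while CPT1A is blue in RCC4+VHL and red in HepG2 cells. The dark cell of ACOX2 in RCC4+VHL cells rests on 0 to 12 counts per library and was not called.

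In HKC8 cells normoxic and hypoxic libraries numbered 2 and 3 deviated together with their own number (r = 0.453 and 0.447). Those numbered 1 did so weakly (r = 0.109) and did not correlate best with their own number. The numbers were taken as pairs, and the fit with the replicate number as a block was also read. It called 4 higher and 10 lower of the 34, where 21% of all genes rose and 21.6% fell in that fit. All 8 genes of the unblocked test were among them. The genes added were CRAT (log2 fold change 0.30, adjusted p = 0.026), ACAD9 (-0.19, 0.018), ACADSB (-0.27, 0.0184), DECR1 (-0.23, 0.0155), EHHADH (-0.29, 0.0396) and HSD17B4 (-0.25, 0.00664), all from edgeR. The HKC8 calls were also the least stable to single libraries. Without normoxia replicate 1, 0 rose and 2 fell in edgeR's test, with 3 and 6 at an unadjusted p under 0.05. Without hypoxia replicate 1, 0 rose and 2 fell, with 4 and 7 at an unadjusted p under 0.05. Without normoxia replicate 2 or hypoxia replicate 3, 0 rose and 4 fell, with 3 and 8 at an unadjusted p under 0.05. Calls dropped over all genes too, from 1522 higher and 1235 lower of 13536 with all libraries. They were 687 and 326 of 13739 without normoxia replicate 1, and 750 and 342 of 13656 without hypoxia replicate 1. They were 933 and 522 of 13727 without normoxia replicate 2, and 1037 and 675 of 13665 without hypoxia replicate 3. In HepG2 cells the number that fell was 9 with all libraries. It was 5 without normoxia replicate 1, hypoxia replicate 1 or hypoxia replicate 2, and 4 without hypoxia replicate 3. Over all genes 2621 fell with all libraries, and 2164, 1890, 1947 and 2087 in those fits in turn.

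Other features moved with hypoxia too. The summed level of the 10 hepatocyte markers was 36860 to 38540 CPM in normoxic and 43680 to 47310 CPM in hypoxic HepG2 libraries, with no overlap. That of the 12 renal markers was 954.1 to 992.7 CPM in normoxic and 814.9 to 880.4 CPM in hypoxic RCC4+VHL libraries, again with no overlap. In HepG2 libraries the renal sum was 306.5 to 321.6 CPM in normoxia and 354.2 to 364.7 CPM in hypoxia, and in HKC8 libraries the normoxic and hypoxic ranges overlapped. The part of these shifts in the results on the oxidation genes was not tested. The summed level of the 37 genes was 2995 ± 104 CPM in normoxic and 3126 ± 71.9 CPM in hypoxic HepG2 libraries (SD, n = 3), 1968 ± 24.6 and 1909 ± 37.9 CPM in RCC4+VHL libraries, and 1774 ± 84.1 and 1664 ± 32 CPM in HKC8 libraries. The summed levels did not overlap in HKC8 and RCC4+VHL libraries, and overlapped in HepG2 libraries, where ETFB alone rose by more than the sum did.

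Among the carnitine enzymes, hypoxia lowered CROT in every line and turned CPT1A in opposite ways. CROT is the peroxisomal octanoyltransferase, which turns shortened acyl chains into carnitine esters for export to mitochondria, and its gene lies at chr7:86974980-87029110 on the plus strand (GRCh37). In HKC8 cells it showed 13.3, 13.3 and 15.3 CPM in normoxia and 9.88, 9.75 and 10.0 CPM in hypoxia. RCC4+VHL libraries showed 13.7, 13.3 and 13.3 CPM in normoxia and 10.6, 10.1 and 10.1 CPM in hypoxia. In HepG2 cells it showed 15.7, 15.5 and 15.2 CPM in normoxia and 10.4, 9.75 and 8.2 CPM in hypoxia. In each line every hypoxic library was below every normoxic one, and the lines had nearly the same normoxic level. The log2 fold change was -0.50 in HKC8 (standard error 0.111, adjusted p = 0.0153), -0.39 in RCC4+VHL (0.0776, 0.000237) and -0.71 in HepG2 cells (0.101, 0.000112) by edgeR's quasi-likelihood test. The HKC8 call was lost without normoxia replicate 1 or hypoxia replicate 1, with an adjusted p of up to 0.0666. No difference between lines in the CROT response was called.

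The 150 bases before the RefSeq start site of CROT are shown because this was the gene that fell in every line. They lie at chr7:87345514-87345663 on the plus strand of GRCh38.p14. Capitals would mark ACGTG or GCGTG on either strand, the letters at the centre of the site that HIF binds, and there are none in this window.
CROT: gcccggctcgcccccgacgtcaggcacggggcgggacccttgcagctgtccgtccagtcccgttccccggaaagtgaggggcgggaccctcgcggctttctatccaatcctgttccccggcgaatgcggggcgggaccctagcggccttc

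CPT1A, at chr11:68522088-68611878 on the minus strand (GRCh37), fell in RCC4+VHL cells and rose in HepG2 cells. RCC4+VHL libraries showed 2.13, 1.81 and 1.45 CPM in normoxia and 0.969, 1.14 and 0.807 CPM in hypoxia, from 62 to 108 and 39 to 57 counts. In HepG2 cells it showed 20.2, 19.2 and 17.8 CPM in normoxia and 27.0, 23.2 and 23.7 CPM in hypoxia. Neither pair of groups overlapped. The log2 fold change was -0.88 in RCC4+VHL (standard error 0.244, adjusted p = 0.00434) and 0.37 in HepG2 cells (0.0863, 0.00447) by edgeR. In HKC8 cells it showed 21.9, 19.8 and 22.8 CPM in normoxia and 22.3, 19.7 and 21.2 CPM in hypoxia, which overlapped, and the log2 fold change of -0.02 was not called (standard error 0.1, adjusted p = 0.896).

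CPT1B rose in HKC8 cells, from 18.2, 18.2 and 23.9 to 30.6, 23.6 and 28.6 CPM, with 1 overlapping pair (log2 fold change 0.46, edgeR adjusted p = 0.0473). It fell in HepG2 cells, from 6.87, 9.33 and 8.28 to 6.12, 7.03 and 5.84 CPM, again with overlap (-0.37, edgeR adjusted p = 0.0462). Both calls were marginal. The HKC8 call was lost without normoxia replicate 1 or 2 or hypoxia replicate 1 or 3 (adjusted p up to 0.174), and the HepG2 call without normoxia replicate 2 or 3 or hypoxia replicate 1 or 3 (adjusted p up to 0.199). An annotated read-through transcript joins CHKB to CPT1B and has no row of its own, so its reads cannot be told from those of CPT1B. CPT2, the inner membrane transferase, and CRAT, the transferase for acetyl and other short chains, both rose in HepG2 cells with a log2 fold change of 0.29 (edgeR adjusted p = 0.0146 and 0.00485). The CPT2 call was lost without normoxia replicate 1 or hypoxia replicate 3 (adjusted p up to 0.0737). SLC25A20, the carrier that brings acylcarnitine across the inner membrane and a gene of the uptake list, fell in HKC8 (-0.50, edgeR adjusted p = 0.0145) and HepG2 cells (-0.43, 0.00312).

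The acyl-CoA dehydrogenases take the first step of the mitochondrial spiral. Of the 6 straight-chain and related members tested, 2 rose in HKC8, 4 in RCC4+VHL and 2 in HepG2 cells, where 11.2%, 25.9% and 19.9% of all genes rose, and ACAD9 fell in HepG2 cells. The median log2 fold change of these 6 was 0.14, 0.22 and 0.12 in the 3 lines. ACADVL, the very-long-chain dehydrogenase of the inner membrane, lies at chr17:7120444-7128585 on the plus strand (GRCh37) and shares 1.02% of its exon bases with DLG4 on the other strand. It rose most in HepG2 cells, from 114, 123 and 118 to 173, 169 and 168 CPM, 1.43-fold (log2 fold change 0.52, standard error 0.0585, edgeR adjusted p = 1.49e-05). In RCC4+VHL cells it rose from 131, 129 and 130 to 150, 152 and 152 CPM (0.23, standard error 0.0346, edgeR adjusted p = 7.89e-06). Neither pair of groups overlapped. In HKC8 cells it showed 117, 128 and 136 CPM in normoxia and 141, 142 and 137 CPM in hypoxia, without overlap but not called (0.14, standard error 0.0793, edgeR adjusted p = 0.237).

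The 150 bases before the downstream RefSeq start site of ACADVL are shown because the gene rose in 2 lines and both forms of the HIF core lie close together there. They lie at chr17:7219788-7219937 on the plus strand of GRCh38.p14, with ACGTG and GCGTG in capitals. The matches begin 20 and 14 bases before the start site, and the window at the other ACADVL start site held neither.
ACADVL: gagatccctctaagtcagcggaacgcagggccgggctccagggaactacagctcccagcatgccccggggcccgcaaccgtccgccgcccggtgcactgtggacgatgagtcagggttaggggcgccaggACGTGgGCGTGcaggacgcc

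ACAD11, a dehydrogenase that takes long chains, rose in RCC4+VHL cells from 5.73, 6.24 and 5.38 to 8.84, 9.89 and 8.9 CPM, 1.60-fold and without overlap (log2 fold change 0.68, standard error 0.102, edgeR adjusted p = 7.54e-06). In HKC8 cells it rose from 21, 19.7 and 26.4 to 30.9, 26.3 and 36.4 CPM with overlap (0.48, standard error 0.149, edgeR adjusted p = 0.0485). HepG2 libraries showed 27.8, 31.0 and 28.8 CPM in normoxia and 31.0, 35.2 and 27.4 CPM in hypoxia, which overlapped (0.10, standard error 0.0919, edgeR adjusted p = 0.432). The gene lies at chr3:132276982-132378926 on the minus strand (GRCh37). ACAD10 rose in HKC8 (0.46, edgeR adjusted p = 0.0427) and RCC4+VHL cells (0.22, 0.00268). The HKC8 calls of ACAD10 and ACAD11 were lost without normoxia replicate 1 or 2 or hypoxia replicate 1 or 3, with an adjusted p of up to 0.141 and 0.168. ACADS, for short chains, rose in RCC4+VHL (0.35, edgeR adjusted p = 0.000335) and HepG2 cells (0.33, 0.0108). The fall of ACAD9 in HepG2 cells (-0.18, edgeR adjusted p = 0.05, just under the threshold) was lost without any 1 library other than normoxia replicate 3 (adjusted p up to 0.159).

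Of the branched-chain dehydrogenases, ACADSB moved in opposite directions. It rose in RCC4+VHL cells from 27.3, 27.1 and 27.4 to 36.8, 38.0 and 35.1 CPM (log2 fold change 0.43, standard error 0.0532, edgeR adjusted p = 4.4e-07). There was a fall in HepG2 cells instead, whose normoxic level was 11-fold that of HKC8 and 9.59-fold that of RCC4+VHL cells, from 277, 246 and 256 to 202, 201 and 173 CPM (-0.43, standard error 0.0711, edgeR adjusted p = 0.000348). The groups overlapped in neither line. ACAD8, for the valine pathway, was called in no line.

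Of the 5 genes for the later steps of the spiral, 1 rose and 1 fell in RCC4+VHL cells and 1 fell in HepG2 cells. Of all genes, 25.9% rose and 24.2% fell in RCC4+VHL cells and 19.2% fell in HepG2 cells. HADHA (chr2:26413504-26467540, minus strand, GRCh37) and HADHB (chr2:26466038-26513333, plus strand) encode the subunits of the trifunctional protein and lie head to head. HADHA rose in RCC4+VHL cells, from 155, 156 and 157 to 177, 174 and 174 CPM (log2 fold change 0.17, edgeR adjusted p = 0.000224), and was not called in the other lines, while HADHB was called in none. ECHS1 fell in RCC4+VHL cells (-0.15, edgeR adjusted p = 0.00104) and HADH, the hydroxyacyl-CoA dehydrogenase for shorter chains, fell in HepG2 cells (-0.33, 0.00639). In HKC8 cells 0 of the 5 were called by edgeR, 0 at an unadjusted p under 0.05 and 0 by DESeq2, and their log2 fold changes ran from -0.13 to 0.11.

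Of the enzymes that prepare unsaturated chains, ECI2 changed most. ECI2, an isomerase of mitochondria and peroxisomes at chr6:4115927-4135831 on the minus strand (GRCh37), fell in HKC8 cells from 88.5, 91.9 and 88.4 to 61.9, 63.5 and 61.2 CPM, without overlap (log2 fold change -0.52, standard error 0.068, edgeR adjusted p = 0.00155). RCC4+VHL libraries showed 73.3, 73.2 and 68.4 CPM in normoxia and 64.2, 69.9 and 65.5 CPM in hypoxia, and in HepG2 cells 157, 155 and 141 and then 148, 144 and 149 CPM. Those groups overlapped and neither line was called (edgeR adjusted p = 0.069 and 0.645). In RCC4+VHL cells it was ECI1 (-0.26, edgeR adjusted p = 6.65e-05) and the dienoyl-CoA reductase DECR1 (-0.24, 0.00074) that fell.

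ETFB rose more than any other gene of the list, and only in HepG2 cells was it called. It encodes the beta subunit of the flavoprotein that collects electrons from all acyl-CoA dehydrogenases, and lies at chr19:51848423-51869642 on the minus strand (GRCh37). HepG2 libraries showed 325, 339 and 313 CPM in normoxia and 586, 563 and 575 CPM in hypoxia, 1.76-fold and without overlap (log2 fold change 0.82, standard error 0.0604, edgeR adjusted p = 2.42e-07). In HKC8 cells it showed 20.1, 23.7 and 20.9 CPM in normoxia and 17.7, 26.0 and 17.2 CPM in hypoxia, and in RCC4+VHL cells 30.7, 34.7 and 31.7 and then 31.0, 31.7 and 28.5 CPM. Those groups overlapped and were not called (edgeR adjusted p = 0.76 and 0.237). ETFA, the partner subunit, fell in HepG2 cells (-0.21, edgeR adjusted p = 0.0283), so the subunits moved apart, but this call was lost without any 1 library other than normoxia replicate 3 (adjusted p up to 0.105). ETFDH fell in HKC8 cells from 26.2, 25.2 and 25.5 to 18.8, 17.8 and 19.9 CPM (-0.44, edgeR adjusted p = 0.0113), a call lost without normoxia replicate 1 or hypoxia replicate 1 (adjusted p up to 0.0599). It also fell in RCC4+VHL cells (-0.32, edgeR adjusted p = 0.0325), a call lost without normoxia replicate 2 or 3 or hypoxia replicate 1 or 2 (adjusted p up to 0.172). Up to 5.98% of its exon bases are shared with a neighbour on the other strand.

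The 150 bases before the RefSeq start site of ETFB that holds HIF cores are shown because of that rise. They lie at chr19:51354843-51354992 on the minus strand of GRCh38.p14, written along the gene. Capitals mark ACGTG, which begins 50 bases before the start site, and CACGC, which is GCGTG read on the other strand and begins 5 bases before it. The window at the other ETFB start site held neither core.
ETFB: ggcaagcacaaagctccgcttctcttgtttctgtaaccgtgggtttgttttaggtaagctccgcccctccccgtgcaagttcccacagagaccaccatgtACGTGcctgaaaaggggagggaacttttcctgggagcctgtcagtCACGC

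Such cores are common. RefSeq windows from 250 bases before to 50 after the start were found for 28 of the 37 genes, 39 windows in all, and 19 of the 39 held ACGTG or GCGTG on either strand, beside 48.4% of all 35116 windows. ACGTG alone was in 6 member windows and in 21.4% of all windows. AAGGTCA, the site of the estrogen-related receptors, was in 0 of 39 member windows and 3.92% of all. The repeat bound by PPARA with its partner, 2 copies of AGGTCA separated by any 1 base, was in 0 of 39 and 0.0228% of all. No match says only that these letters are not in these windows.

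Of the 6 peroxisomal enzymes tested, 3 fell in RCC4+VHL cells and 3 in HepG2 cells, where 24.2% and 19.2% of all genes fell. In HKC8 cells 0 of 6 were called by edgeR without the block, with 1 lower at an unadjusted p under 0.05 and 1 lower by DESeq2, and the block called EHHADH and HSD17B4 lower (adjusted p = 0.0396 and 0.00664). By edgeR 0 rose in RCC4+VHL cells, with 0 at an unadjusted p under 0.05 and 0 by DESeq2. By edgeR 0 rose in HepG2 cells, with 1 at an unadjusted p under 0.05 and 1 by DESeq2. That gene was ACOX3, a peroxisomal oxidase (log2 fold change 0.25, edgeR adjusted p = 0.0521, DESeq2 adjusted p = 0.0454). Their median log2 fold change was -0.11 in HKC8, -0.14 in RCC4+VHL and -0.17 in HepG2 cells. HSD17B4, the bifunctional enzyme for branched chains, fell in RCC4+VHL cells from 135, 131 and 133 to 106, 117 and 117 CPM (-0.22, edgeR adjusted p = 8.4e-05), and CAT, catalase, fell there from 102, 105 and 106 to 91.1, 95.9 and 97.0 CPM (-0.14, 0.00595). ACOX2 fell in HepG2 cells, the line that expressed it, from 33.7, 31.6 and 30.4 to 26.6, 25.9 and 25 CPM (-0.30, edgeR adjusted p = 0.00455). EHHADH fell in HepG2 cells (-0.27, edgeR adjusted p = 0.0199), a call lost without normoxia replicate 1 or hypoxia replicate 2 or 3 (adjusted p up to 0.103). ACAA1, the peroxisomal thiolase, fell in RCC4+VHL (-0.15, edgeR adjusted p = 0.031) and HepG2 cells (-0.16, 0.0495). It shares 19.74% of its exon bases with DLEC1 on the other strand. The RCC4+VHL call was lost without normoxia replicate 2 or 3 or hypoxia replicate 2 or 3 (adjusted p up to 0.0968), and the HepG2 call without any 1 library other than normoxia replicate 3 (adjusted p up to 0.192).

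Of the ketone body enzymes, OXCT1 fell in HKC8 and RCC4+VHL cells and BDH1 in HKC8 cells. BDH1, which interconverts acetoacetate and hydroxybutyrate, lies at chr3:197236654-197300194 on the minus strand (GRCh37). It fell in HKC8 cells from 17.9, 18.2 and 17.4 to 9.74, 11.8 and 9.4 CPM, the largest fall among the called HKC8 members (log2 fold change -0.79, standard error 0.119, edgeR adjusted p = 0.00308). RCC4+VHL libraries showed 5.73, 6.91 and 5.41 CPM in normoxia and 5.48, 6.07 and 6.13 CPM in hypoxia, and in HepG2 cells 16.8, 14.7 and 11.4 and then 11.9, 12.5 and 13.4 CPM. Only the HKC8 groups did not overlap, and the other lines were not called (edgeR adjusted p = 0.873 and 0.259). OXCT1 fell in HKC8 cells from 191, 189 and 188 to 162, 159 and 160 CPM (-0.23, edgeR adjusted p = 0.0378) and in RCC4+VHL cells from 19, 18.8 and 17.6 to 13.8, 15.7 and 13.6 CPM (-0.36, 0.000273), with no overlap in either. The HKC8 call was lost without any 1 library other than normoxia replicate 3 (adjusted p up to 0.131).

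Of the regulators, PPARA rose in RCC4+VHL and HepG2 cells and PPARGC1A fell in RCC4+VHL cells. PPARA, the nuclear receptor that switches on oxidation genes in liver, lies at chr22:46546424-46639652 on the plus strand (GRCh37). It rose in RCC4+VHL cells from 24.4, 25.5 and 26.1 to 28.1, 28.4 and 31.3 CPM (log2 fold change 0.21, standard error 0.0594, edgeR adjusted p = 0.0046). It also rose in HepG2 cells from 35.9, 30.8 and 36.2 to 41.0, 41.2 and 40.1 CPM (0.25, standard error 0.0723, edgeR adjusted p = 0.0145), a call lost without hypoxia replicate 1 or 2 (adjusted p up to 0.056). Neither pair of groups overlapped. In HKC8 cells it showed 3.55, 2.98 and 5.71 CPM in normoxia and 4.94, 3.27 and 4.31 CPM in hypoxia, with overlap and no call (0.03, standard error 0.256, edgeR adjusted p = 0.94). PPARGC1A, a coactivator of PPARA and of mitochondrial genes, lies at chr4:23756664-23905712 on the minus strand (GRCh37). It fell in RCC4+VHL cells from 23.3, 22.8 and 23.7 to 15.4, 13.1 and 14.3 CPM, 1.62-fold and without overlap (-0.70, standard error 0.0682, edgeR adjusted p = 1.26e-08). HepG2 libraries showed 29.5, 24.6 and 29.0 CPM in normoxia and 33.0, 29.5 and 24.1 CPM in hypoxia, which overlapped (0.06, standard error 0.106, edgeR adjusted p = 0.692). It was not tested in HKC8 cells, where it had at most 5 counts.

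**Figure D3:**
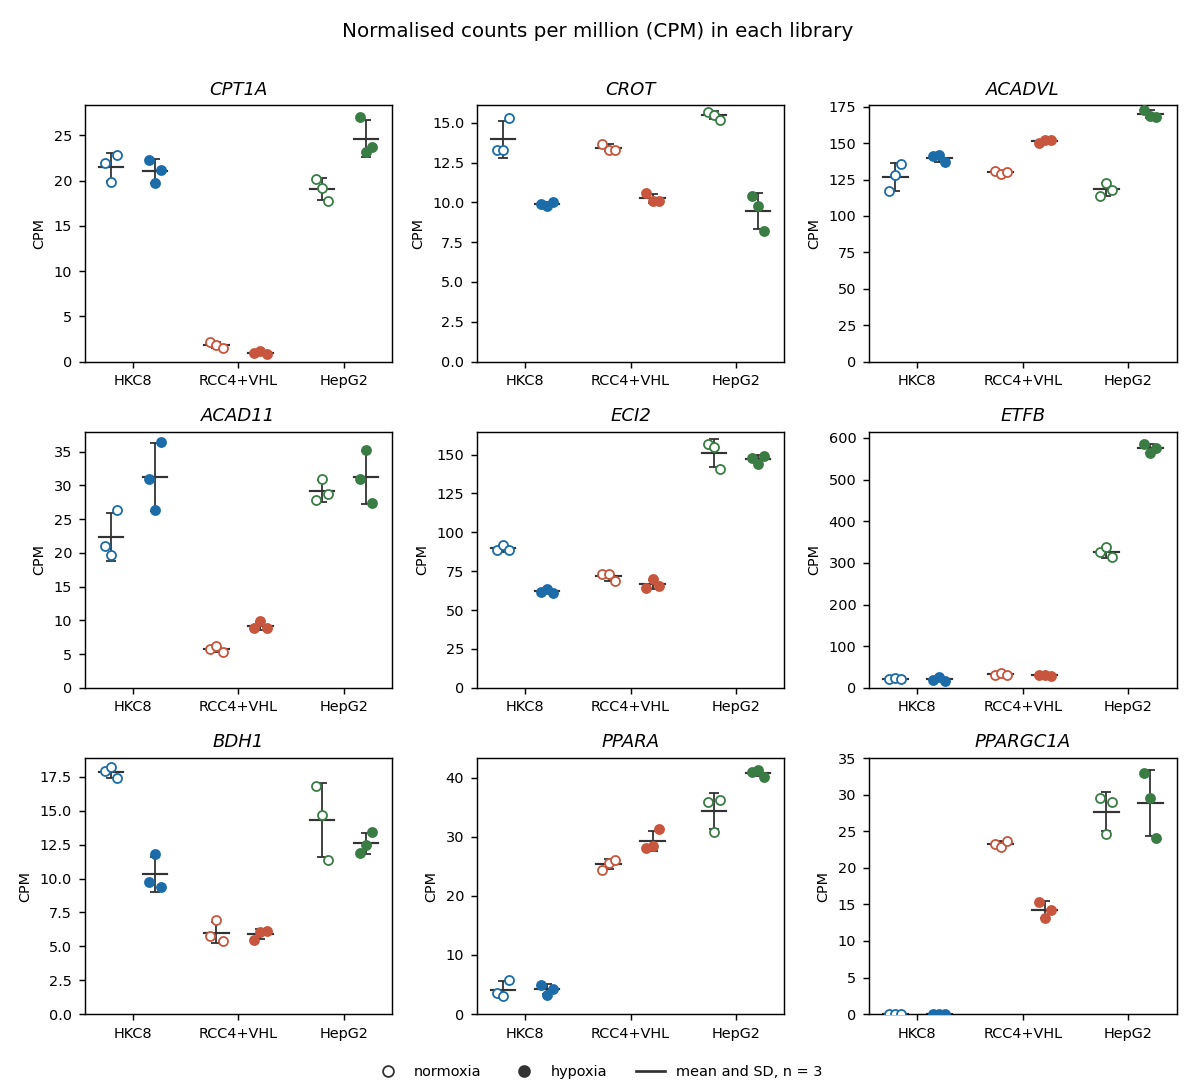
CPM of the 9 genes given library by library, 1 panel each with its own axis from 0, with open points for normoxia, filled points for hypoxia, and bars for mean and SD of 3 libraries. CROT is lower in hypoxia in each line with no overlap, ETFB separates in HepG2 cells alone, and CPT1A lies near the bottom of its panel in RCC4+VHL cells.

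Whether a response differed between lines was tested as the interaction of line and oxygen. Between HepG2 and HKC8 cells 4 of 35 genes tested differed, where 9.3% of all genes did. With the replicate number as a block 9 differed, where 20.1% of all genes did. Between RCC4+VHL and HKC8 cells 5 genes differed, where 15.2% of all genes did, and 7 with the block, where 28.7% did. Between HepG2 and RCC4+VHL cells 7 differed, where 22.6% of all genes did. The comparisons share libraries, so a gene that appears in a pair of them is not seen independently.

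ETFB responded more in HepG2 than in HKC8 cells by 0.90 on the log2 scale (standard error 0.174, edgeR adjusted p = 0.00396) and than in RCC4+VHL cells by 0.91 (0.0806, 1.12e-07). ACADVL also responded more in HepG2 cells, by 0.38 against HKC8 (standard error 0.0968, edgeR adjusted p = 0.0214) and 0.30 against RCC4+VHL cells (0.0643, 0.0022). The first of these was lost without HKC8 normoxia replicate 3, HepG2 normoxia replicate 1 or any 1 HepG2 hypoxia replicate (adjusted p up to 0.0794). CPT1A differed most, by 1.26 between HepG2 and RCC4+VHL cells (standard error 0.204, edgeR adjusted p = 0.000171), and its response in RCC4+VHL cells was 0.88 below that in HKC8 cells (log2 difference -0.88, standard error 0.211, edgeR adjusted p = 0.0132). ACADSB responded less in HepG2 than in RCC4+VHL cells (-0.86, standard error 0.0887, edgeR adjusted p = 9e-07) and more in RCC4+VHL than in HKC8 cells (0.68, standard error 0.135, edgeR adjusted p = 0.00457).

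ECI2 fell more in HKC8 cells than in HepG2 (difference 0.49, standard error 0.0895, edgeR adjusted p = 0.00284) and RCC4+VHL cells (0.40, 0.0775, 0.00386). BDH1 fell more in HKC8 than in RCC4+VHL cells (0.74, standard error 0.165, edgeR adjusted p = 0.00897), and against HepG2 cells its difference was called with the block (0.62, edgeR adjusted p = 0.017) and not without it (0.60, 0.058). PPARGC1A responded more in HepG2 than in RCC4+VHL cells (0.77, standard error 0.139, edgeR adjusted p = 0.000506), and ACAD11 less (-0.57, standard error 0.136, edgeR adjusted p = 0.00497). The remaining differences did not survive every omission of 1 library. That of CPT1B between HepG2 and HKC8 cells (-0.82, edgeR adjusted p = 0.0207) was lost without HKC8 normoxia or hypoxia replicate 1, HepG2 normoxia replicate 2, or HepG2 hypoxia replicate 1 or 3 (adjusted p up to 0.07). That of ECI1 between RCC4+VHL and HKC8 cells (-0.41, edgeR adjusted p = 0.0259) was lost without HKC8 normoxia replicate 1 or 2, RCC4+VHL normoxia replicate 2 or 3, or RCC4+VHL hypoxia replicate 3 (adjusted p up to 0.0776). That of CPT2 between HepG2 and RCC4+VHL cells (0.28, edgeR adjusted p = 0.0435) was lost in 8 of 12 such fits, those without any RCC4+VHL library but normoxia replicate 3, or without HepG2 normoxia replicate 1 or hypoxia replicate 2 or 3 (adjusted p up to 0.138). The genes that only the block added were CPT1A (0.39, edgeR adjusted p = 0.0179), ACAD11 (-0.39, 0.0182), HADH (-0.33, 0.0282) and ETFDH (0.41, 0.0225) besides BDH1 between HepG2 and HKC8 cells, and ACADM (0.21, 0.0406) and ACAD10 (-0.26, 0.0496) between RCC4+VHL and HKC8 cells.

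**Figure D4:**
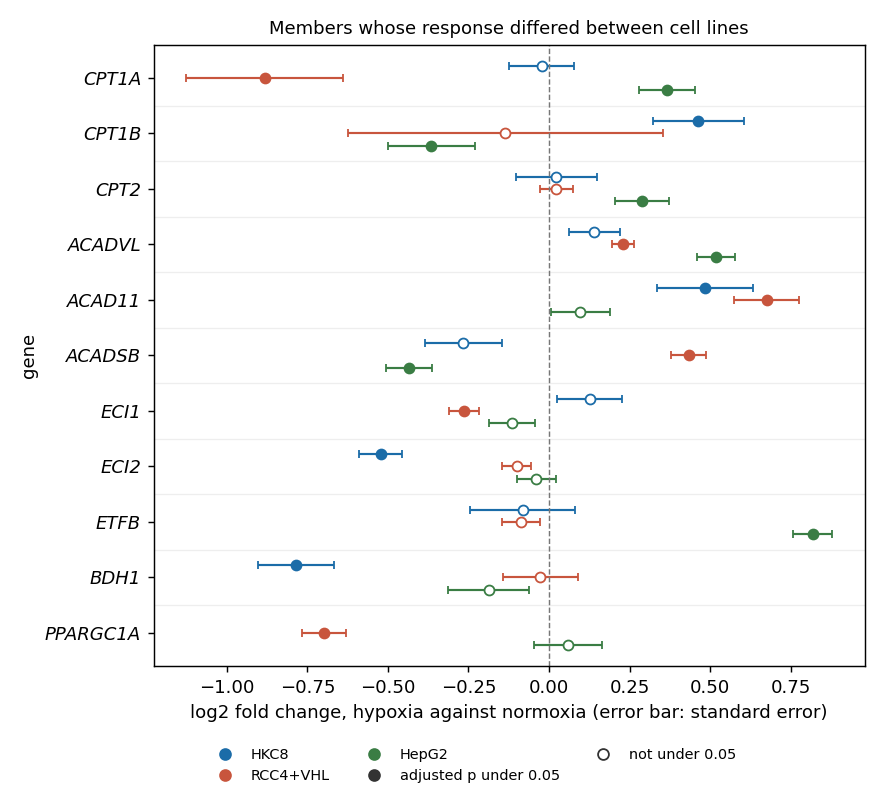
Log2 fold change in hypoxia with its standard error for the 11 genes whose response differed between lines without the block, 1 colour per line, filled where the response itself was called. ETFB and ACADVL lie farthest right in HepG2 cells, CPT1A and PPARGC1A farthest left in RCC4+VHL cells, and ECI2 and BDH1 in HKC8 cells.

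Counts of genes around the pathway are to be read beside the shares of all genes, of which 11.2% rose and 9.12% fell in HKC8, 25.9% and 24.2% in RCC4+VHL, and 19.9% and 19.2% in HepG2 cells. Of the 16 peroxins, which build peroxisomes, 0 were called in HKC8 cells by edgeR, with 1 lower at an unadjusted p under 0.05 and 0 by DESeq2. Of the peroxins in RCC4+VHL cells, 2 of 16 rose and 2 fell, and in HepG2 cells 2 of 15 rose and 2 fell. PEX11A, which drives peroxisome division, rose in HepG2 cells from 7.19 ± 0.824 to 13 ± 1.35 CPM (log2 fold change 0.85, edgeR adjusted p = 7.18e-05, n = 3 per group). A smaller rise of PEX11A was called in RCC4+VHL cells (0.25, edgeR adjusted p = 0.0344). Of other peroxisomal enzymes and carriers, 1 of 18 rose and 5 fell in HKC8 cells, 1 of 19 rose and 8 fell in RCC4+VHL cells, and 2 of 22 rose and 7 fell in HepG2 cells. Their median log2 fold change was -0.16, -0.11 and -0.13, beside 0.00 for all genes. SLC25A17, a peroxisomal carrier of cofactors, fell in HKC8 (-0.43, edgeR adjusted p = 0.011) and RCC4+VHL cells (-0.26, 5.34e-05).

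Of the genes for fatty acid uptake and activation, 3 of 16 rose and 1 fell in HKC8, 2 of 16 rose and 4 fell in RCC4+VHL, and 4 of 19 rose and 6 fell in HepG2 cells. ACSL1, an acyl-CoA synthetase, fell in HepG2 cells from 81.8 ± 7.46 to 46.6 ± 4.47 CPM (log2 fold change -0.81, edgeR adjusted p = 5.09e-06). FABP1, the liver fatty acid binding protein, rose there from 51.3 ± 12.5 to 94.5 ± 12.1 CPM (0.88, 0.00018, n = 3 per group). A smaller fall of ACSL1 was called in RCC4+VHL cells (-0.14, edgeR adjusted p = 0.029). Of other acyl-CoA oxidation enzymes, 1 of 10 rose and 2 fell in HKC8, 1 of 10 rose and 3 fell in RCC4+VHL, and 0 of 9 rose and 4 fell in HepG2 cells (edgeR; 0 rose at an unadjusted p under 0.05 and 0 by DESeq2). GCDH, the glutaryl-CoA dehydrogenase, which also feeds the flavoprotein, fell in HKC8 (-0.63), RCC4+VHL (-0.21) and HepG2 cells (-0.40), with edgeR adjusted p = 0.0146, 0.00392 and 0.00131. Of the ketogenesis genes, 1 of 5 rose in HKC8, 2 of 4 in RCC4+VHL and 2 of 5 in HepG2 cells, and 0 fell in any line by edgeR, at an unadjusted p under 0.05 or by DESeq2.

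Of 18 other regulators of oxidation, 2 of 16 tested rose in HKC8 cells and 0 fell by edgeR (3 fell at an unadjusted p under 0.05, 0 by DESeq2). Among them 6 of 17 rose and 7 fell in RCC4+VHL cells, and in HepG2 cells 3 of 16 rose and 6 fell. PPARG, a receptor of the PPARA family, rose in HepG2 cells from 18.5 ± 1.07 to 38.7 ± 3.28 CPM, and PPARGC1B, a relative of PPARGC1A, fell there from 6.02 ± 1.21 to 2.51 ± 0.361 CPM (log2 fold changes 1.06 and -1.26, edgeR adjusted p = 3.84e-07 and 8.15e-05, n = 3 per group). A smaller fall of PPARGC1B was called in RCC4+VHL cells (-0.29, edgeR adjusted p = 0.0408). ESRRA, the estrogen-related receptor that works with PPARGC1A, fell in RCC4+VHL cells (-0.39, edgeR adjusted p = 9.35e-07). Of the PPAR-responsive genes outside the list, some of which are also uptake or other oxidation genes, 3 of 5 tested rose and 1 fell in HKC8, 2 of 5 rose and 0 fell in RCC4+VHL (0 at an unadjusted p under 0.05 and 0 by DESeq2), and 4 of 8 rose and 1 fell in HepG2 cells. PLIN2, the lipid droplet coat protein, rose from 233 ± 16.4 to 1260 ± 92 CPM in HepG2 cells and from 127 ± 0.524 to 406 ± 2.75 CPM in RCC4+VHL cells (log2 fold changes 2.43 and 1.68, edgeR adjusted p = 3.48e-11 and 7.36e-22, n = 3 per group), more than any member did.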

How the data were processed

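PolyA+ RNA libraries were made with the ScriptSeq v2 kit. Per the study's methods, the authors trimmed adapters, aligned reads to GRCh37 with TopHat 2.0.8b and Bowtie 1.0.0, removed fragments that did not map uniquely with SAMtools 0.1.19, and counted reads per UCSC gene with HTSeq 0.5.4p3 (intersection-strict). What was deposited is 1 raw count per gene for each library, with no normalization. The strand setting of the count is not given in the sources used here, so reads of overlapping genes on opposite strands cannot be told apart.

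Samples were grouped by their labels. Genes were filtered by filterByExpr, scaled by TMM and tested with glmQLFit and glmQLFTest of edgeR 4.0.16 in R 4.3.3, each line apart for hypoxia, line pairs for the interaction and the normoxic groups together for levels. The Benjamini-Hochberg adjustment ran over all genes tested, with calls at 0.05. The standard error is the log2 fold change divided by the square root of F. DESeq2 1.42.0 served as an alternative. The scripts were tested on simulated data with known changes. CPM and RPKM were computed for this report from the deposited counts, RPKM with the longest GENCODE transcript. Promoter windows came from RefSeq on GRCh38.p14, and gene coordinates and exon overlaps from GENCODE lifted to GRCh37.

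Members and other lists were chosen by function with earlier results of these data known. All 37 members could be named. Those with an adjusted p under 0.05, a log2 fold change of 0.5 or more in size and no overlap between groups in a line, plus CPT1A, PPARA and PPARGC1A, were given in each library, 9 genes in all. Of other lists at most 3 genes per direction and line could be named. Replicate numbers come from the labels. Deviations of same-numbered libraries from their group means correlated with r = 0.109, 0.453 and 0.447 in HKC8 cells, all above 0.1, so the numbers were taken to pair these libraries. No 2 replicates of a group agreed within sampling noise (chi-square per degree of freedom 4.57 or more). Alternatives were size factors by the median of ratios, DESeq2, no filter, at least 10 counts in every sample, the replicate block, 1 fit of all 18 samples, each library left out, and exon-union length.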

Additional observations from a re-analysis of the deposited data

Results flagged for a closer look

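Hypoxia responses that differed between lines by the interaction test are given here as differences of log2 fold changes, the response in the first line minus that in the second. HepG2 minus HKC8 was -0.82 for CPT1B, 0.38 for ACADVL, 0.49 for ECI2 and 0.90 for ETFB. RCC4+VHL minus HKC8 was -0.88 for CPT1A, 0.68 for ACADSB, -0.41 for ECI1, 0.40 for ECI2 and 0.74 for BDH1. HepG2 minus RCC4+VHL was 1.26 for CPT1A, 0.28 for CPT2, 0.30 for ACADVL, -0.57 for ACAD11, -0.86 for ACADSB, 0.91 for ETFB and 0.77 for PPARGC1A. These are 16 differences in 11 genes. Library depth goes with the line, and for RCC4+VHL cells so do the labelled oxygen level and duration, which cannot be told apart from the line. The titles of the hypoxic HKC8 libraries give a lower oxygen level than their labels, so the level may also differ between HKC8 and HepG2 cells.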

How the results depend on the processing

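No called response changed sign under any alternative. Of the members that fell in HKC8 cells (5), the replicate block gave 10 and 1 fit of all 18 samples 9, and leaving out single libraries gave 2 to 5. Those that rose there (3) were 4 under the block and in the fit of all 18 samples, and 0 to 3 with single libraries left out. Calls over all genes moved between these fits too. The fit of all 18 samples called 2503 higher and 2510 lower of 15307 in HKC8 cells. In the fit of all 18 samples 7 fell in RCC4+VHL cells (11 in the line's own fit) and 5 in HepG2 cells (9), where single omissions gave 4 to 13. Over all genes 1419 of 15307 fell in RCC4+VHL cells and 2187 in HepG2 cells in the fit of all 18 samples. Differences between HepG2 and HKC8 cells were higher in 3 genes and lower in 1. DESeq2 gave 6 higher, the block 6 higher and 3 lower, and single omissions 2 to 4 higher and 0 to 2 lower. The count was 0 lower without HKC8 normoxia or hypoxia replicate 1 or HepG2 normoxia replicate 2 or hypoxia replicate 1 or 3, with 2, 3, 2, 2 and 2 at an unadjusted p under 0.05. Over all genes HepG2 minus HKC8 gave 1108 higher and 896 lower of 15046 by DESeq2, and 1656 and 1363 with the block. RCC4+VHL minus HKC8 gave 1 to 2 members lower. HepG2 minus RCC4+VHL gave 4 to 7 higher and 2 to 4 lower, 4 without HepG2 normoxia replicate 2. The cause of these changes was not tested. Replicate numbers did not pair RCC4+VHL (r -0.0103, 0.0333, 0.0147) or HepG2 libraries (r 0.165, 0.0617, 0.184), by the rule that every r be above 0.1. Every HepG2 replicate correlated best with its own number, as did replicates 2 and 3 but not 1 in HKC8 cells, which were taken as paired, and replicate 2 alone in RCC4+VHL cells. The block there gave 7 higher and 12 lower in RCC4+VHL and 8 higher and 12 lower in HepG2 cells. Over all genes it called 3351 higher and 3143 lower of 12811 in RCC4+VHL cells, and 2951 and 2906 of 13623 in HepG2 cells.

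Of 62 responses tested and not called, 20 changed sign when a single library was left out, over these ranges of log2 fold change. In HKC8 cells they were ACOX2 (-0.939 to 0.284), CAT (-0.169 to 0.057), CPT1A (-0.079 to 0.025), CPT2 (-0.072 to 0.156), DECR2 (-0.187 to 0.06), ETFB (-0.299 to 0.023), HADH (-0.023 to 0.055), HADHA (-0.001 to 0.077) and PPARA (-0.148 to 0.353). In RCC4+VHL cells they were ACAA2 (-0.055 to 0.015), BDH1 (-0.098 to 0.083), CPT1B (-0.622 to 0.228), CPT2 (-0.005 to 0.056), DECR2 (-0.069 to 0.008) and HADHB (-0.06 to 0.011). In HepG2 cells they were ACADM (-0.112 to 0.006), ETFDH (-0.084 to 0.005), HADHA (-0.007 to 0.041), OXCT1 (-0.101 to 0.099) and PPARGC1A (-0.046 to 0.174). ACOX2 had 9 to 49 counts per HKC8 library and CPT1B 8 to 24 per RCC4+VHL library.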
